A study of Arabidopsis thaliana with 6 samples.

Results

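The 5 genes described here are the Arabidopsis thaliana salicylic acid defence genes PR1 (AT2G14610), PR2 (AT3G57260) and PR5 (AT1G75040), and the regulators WRKY53 (AT4G23810) and SAG101 (AT5G14930). Each was followed through 1 named probe set among 22746 on the array, and all 5 were bright enough to be tested, as were 14323 probe sets in all. The probe sets were chosen by identifier: 254231_at for WRKY53 and 246600_at for SAG101, both given to those genes by the platform annotation, and 266385_at for PR1, 251625_at for PR2 and 259925_at for PR5. The annotation used does not list the last 3 probe sets under any gene, so those names rest on the identifiers by which they were selected and could not be checked against it.

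Total RNA from 3-week-old plants was hybridised to 6 expression arrays, 2 each of vip5 mutants, vip6 mutants and wild type (WT). VIP5 and VIP6 encode plant counterparts of Rtf1 and Ctr9, subunits of the Paf1 complex that travels with RNA polymerase II. The labels give no mutant allele, accession, tissue or growth condition, and do not say whether replicate arrays stand for separate plants, so the p-values reflect array-to-array spread that may be purely technical. Because each array measured RNA from many cells, fewer cells of a type and less RNA per cell cannot be told apart.

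Salicylic acid is a plant hormone of defence against pathogens that feed on living tissue. It is sensed by NPR proteins, which act with TGA transcription factors on target genes, and the secreted PR proteins are the customary readouts of that response. PR1 belongs to the CAP family of small secreted proteins, PR2 is a beta-1,3-glucanase that can cut cell wall glucans, and PR5 is a thaumatin-like protein. WRKY53 is a transcription factor of leaf senescence and defence that binds W-box elements, and SAG101 is a lipase-like protein that pairs with EDS1 in immune signalling.

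None of the 5 genes passed the test in either mutant. PR1 had a lower mean in both mutants than in wild type, PR2 had a higher mean in both, and PR5 lay close to wild type. SAG101 had a higher mean in both mutants, and WRKY53 had lower mean intensities, although its log2 difference in vip6 changed sign with the scaling. The arrays of wild type differed from each other by more than 2-fold for PR1, PR2 and WRKY53, and the mutant differences of these 3 genes depended on which wild type array they were measured against.

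PR1 had intensities of 374 and 486.8 on the vip5 arrays and 543.9 and 392.7 on the vip6 arrays, against 522.3 and 1466.5 on the WT arrays, in each case for arrays 1 and 2 as the sample titles number them. Array 2 of wild type stood above the other 5 arrays, while array 1 of wild type lay within the range of the mutant arrays, above both vip5 arrays and between the vip6 arrays. The means were 430.4 ± 79.8 in vip5 and 468.3 ± 107 in vip6, against 994.4 ± 668 in WT (SD, n = 2 each). On the log2(intensity + pseudocount) scale, which is used for all fold changes here and understates those of dim probe sets, vip5 differed from WT by -0.98 (SE 0.43, limma adjusted p = 0.461). The 95% interval, which takes no account of multiple testing, was from 0.255-fold to 1.01-fold of wild type. In vip6 the log2 fold change was -0.87 with an adjusted p of 0.559, and an interval from 0.275-fold to 1.08-fold. Without wild type array 2 the log2 fold changes were -0.27 in vip5 and -0.16 in vip6, and without wild type array 1 they were -1.69 and -1.58. Leaving out a mutant array placed PR1 at -0.80 or -1.16 in vip5 and at -1.09 or -0.66 in vip6.

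PR2 had intensities of 644.6 and 557.2 on the vip5 arrays and 973.3 and 537.2 on the vip6 arrays, against 300.3 and 676.4 on the WT arrays. The lowest value was that of wild type array 1 and the highest that of vip6 array 1, and the second wild type array exceeded both vip5 arrays. The means were 600.9 ± 61.8 in vip5 and 755 ± 308 in vip6, against 488 ± 266 in WT (SD, n = 2 each). The log2 fold changes were 0.37 in vip5 (limma adjusted p = 0.787) and 0.63 in vip6 (limma adjusted p = 0.654), with intervals from 0.694-fold to 2.42-fold and from 0.831-fold to 2.89-fold of wild type. They were -0.16 in vip5 and 0.094 in vip6 without wild type array 1, and 0.91 and 1.17 without wild type array 2. Without vip6 array 1 the vip6 value was 0.23, and without vip6 array 2 it was 1.04.

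PR5 had intensities of 581 and 470.3 on the vip5 arrays and 609.8 and 346.8 on the vip6 arrays, against 489.6 and 532.2 on the WT arrays. Both wild type values lay between the values of each mutant. The means were 525.65 ± 78.3 in vip5 and 478.3 ± 186 in vip6, against 510.9 ± 30.1 in WT (SD, n = 2 each). The log2 fold changes were 0.032 in vip5 (limma adjusted p = 0.981) and -0.14 in vip6 (limma adjusted p = 0.925). The intervals ran from 0.665-fold to 1.57-fold in vip5 and from 0.592-fold to 1.40-fold in vip6, so a change of 2-fold in either direction lay outside them. Without vip6 array 2 the vip6 value was 0.24, and without vip6 array 1 it was -0.51. In vip5 it was -0.11 without vip5 array 1, 0.17 without vip5 array 2, -0.024 without wild type array 1 and 0.088 without wild type array 2.

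**Figure D1:**
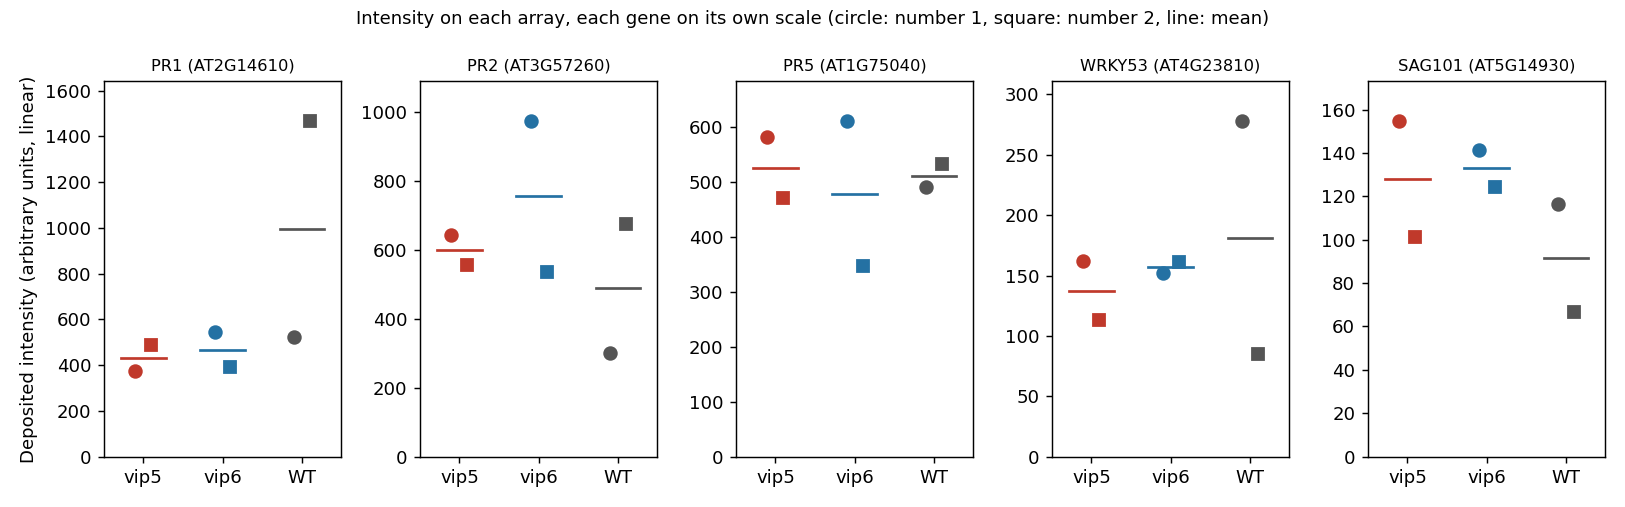
Deposited intensity (linear, arbitrary units) of the 5 genes on each array of vip5, vip6 and WT, with each gene on its own axis from 0, circles for array 1, squares for array 2 and a line at the mean of the 2 arrays. For PR1 the square of WT at 1466.5 stands above all other points, and for WRKY53 the WT points at 277.7 and 84.6 lie outside all mutant points.

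WRKY53 had intensities of 161.8 and 113.3 on the vip5 arrays and 152.4 and 161.5 on the vip6 arrays, against 277.7 and 84.6 on the WT arrays. The wild type arrays gave the highest and the lowest of the 6 values, with all mutant arrays between them. The lowest lay below the brightness needed for testing, which was 111.1 on wild type array 2. The group means were 137.55 ± 34.3 in vip5 and 157 ± 6.43 in vip6, against 181 ± 137 in WT (SD, n = 2 each). The 95% intervals ran from 0.465-fold to 1.68-fold of wild type in vip5 and from 0.520-fold to 1.88-fold in vip6. The log2 fold changes were -0.18 and -0.015 (limma adjusted p = 0.916 and 0.992). Without wild type array 1 these became 0.50 and 0.66, and without wild type array 2 they were -0.86 and -0.69. The vip5 value was -0.38 without vip5 array 1 and 0.022 without vip5 array 2, and the vip6 value was 0.018 without vip6 array 1 and -0.047 without vip6 array 2. The vip6 value was also above 0 under quantile normalization (0.053) and median scaling (0.023), so no direction was assigned to it.

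SAG101 had intensities of 154.6 and 101.1 on the vip5 arrays and 141.4 and 124.4 on the vip6 arrays, against 116.3 and 66.6 on the WT arrays. Both vip6 arrays exceeded both wild type arrays, and in vip5 array 2 lay between the wild type arrays. Wild type array 2 and vip5 array 2 lay below the brightness needed for testing, which was 111.1 and 105 on those arrays. The means were 127.85 ± 37.8 in vip5 and 132.9 ± 12.02 in vip6, against 91.45 ± 35.1 in WT (SD, n = 2 each). The log2 fold changes were 0.36 in vip5 and 0.42 in vip6 (limma adjusted p = 0.660 and 0.646). Their intervals ran from 0.854-fold to 1.93-fold in vip5 and from 0.890-fold to 2.02-fold in vip6. SAG101 stayed above wild type in both mutants with any of the 6 arrays left out. The values were lowest without wild type array 2, at 0.085 and 0.15, and highest without wild type array 1, at 0.63 and 0.69. Without vip5 array 1 or 2 the vip5 value was 0.13 or 0.60.

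By group mean, the order of levels from low to high was vip5, vip6, WT for PR1 and WRKY53, WT, vip5, vip6 for PR2 and SAG101, and vip6, WT, vip5 for PR5. No neighbours in any of these orders differed beyond the spread between arrays. Of the 5 genes, 0 passed a limma adjusted p of 0.05 in vip5 and 0 in vip6, where 0.0768% and 0.105% of all tested probe sets did. At an unadjusted p below 0.05 the counts were again 0 and 0, where 10.9% and 9.88% of all tested probe sets passed. Both mutant arrays lay beyond both wild type arrays for 1 of 5 genes in vip5, PR1, and for 1 of 5 in vip6, SAG101, against 40.9% and 39.9% of all tested probe sets. The median log2 fold change of the 5 genes was 0.032 in vip5 and -0.015 in vip6, beside -0.0042 and -0.012 over all tested probe sets. The wild type arrays serve both comparisons.

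The mutants were also compared with each other. Vip6 differed from vip5 by a log2 value of 0.11 for PR1, 0.26 for PR2, -0.17 for PR5, 0.16 for WRKY53 and 0.060 for SAG101, and 0 of the 5 passed by limma, as did 0% of all tested probe sets. With the array number as a block the counts were 0 of the 5 and 0.00698% of all tested probe sets. An unadjusted p below 0.05 was found for 0 of the 5 and for 1.54% of all tested probe sets. The 95% intervals of vip6 over vip5 were from 0.542-fold to 2.14-fold for PR1, from 0.641-fold to 2.23-fold for PR2 and from 0.589-fold to 2.13-fold for WRKY53. They were narrower for PR5, from 0.579-fold to 1.37-fold, and for SAG101, from 0.693-fold to 1.57-fold. A difference of 2-fold between the mutants thus lay inside the interval of 3 genes, and the lack of a call does not show that the mutants were alike. No gene had both vip6 arrays on one side of both vip5 arrays, which 25.5% of all tested probe sets did.

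**Figure D2:**
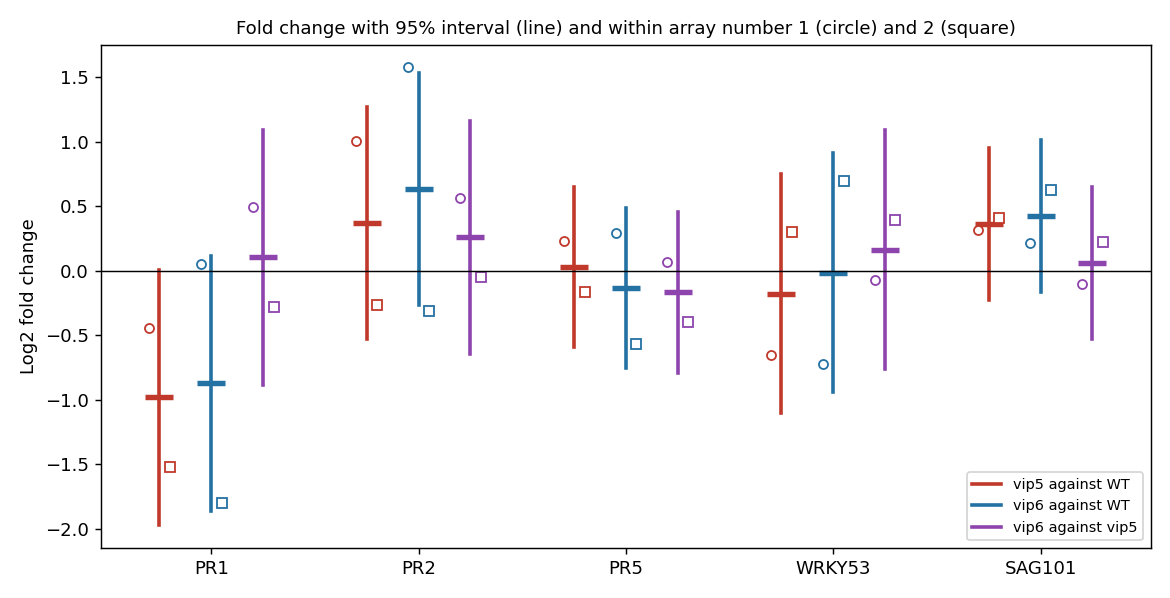
Log2 fold change of the 5 genes in vip5 against WT, vip6 against WT and vip6 against vip5, with thick bars for the estimate, lines for the 95% interval of the limma model, and open circles and squares for the difference between arrays numbered 1 and between arrays numbered 2. All 15 intervals include 0, and for PR2, PR5 and WRKY53 the circle and the square lie on opposite sides of 0 in every comparison.

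The array numbers in the sample titles are shared by the 3 groups, and control transcripts added for hybridisation were brighter on arrays numbered 2. Ratios were taken over 14 probe sets of the bioB, bioC, bioD and cre controls, which were selected by name and may not be all of them. Array 2 was 3.04 to 7.06 times as bright as array 1 in vip5, 1.76 to 3.95 times in vip6 and 1.51 to 2.17 times in WT. The part of this in the values of the 5 genes was not tested. Differences from wild type were therefore also taken within each number. Between arrays numbered 1, PR1 differed by -0.44 in vip5 and 0.054 in vip6, and between arrays numbered 2 by -1.52 and -1.80. PR2 differed by 1.01 in vip5 and 1.58 in vip6 within number 1, and by -0.26 and -0.31 within number 2. PR2 was thus above wild type in both mutants on one pair of arrays and below it on the other. PR5 behaved likewise on a smaller scale, with 0.23 and 0.30 within number 1 and -0.17 and -0.57 within number 2. WRKY53 had the opposite order, with -0.66 and -0.73 within number 1 and 0.30 and 0.70 within number 2. SAG101 was above wild type in both mutants within both numbers, by 0.32 and 0.22 within number 1 and by 0.41 and 0.63 within number 2.

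Signs that differed between the numbers were found for 3 of the 5 genes in vip5 and 4 of the 5 in vip6, against 40.1% and 40.5% of all tested probe sets. With the array number as a block in the model, 0 of the 5 passed in either mutant, where 2.19% of all tested probe sets passed in vip5 and 1.77% in vip6. PR1 then had adjusted p values of 0.202 in vip5 and 0.271 in vip6, and SAG101 of 0.327 and 0.280. An unadjusted p below 0.05 was reached with the block by PR1 in vip5 and by PR1 and SAG101 in vip6, where 17.8% and 16.6% of all tested probe sets reached it.

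The arrays of one group were next set against each other. In wild type, array 2 minus array 1 was a log2 difference of 1.42 for PR1, 1.08 for PR2, 0.11 for PR5, -1.35 for WRKY53 and -0.55 for SAG101. A wild type difference at least as large in either direction was found for 83 of 14323 tested probe sets in the case of PR1 (0.579%), for 94 in the case of WRKY53 (0.656%) and for 239 in the case of PR2 (1.67%). PR1 and PR2 were brighter on wild type array 2, while WRKY53 and SAG101 were brighter on wild type array 1. The differences of PR5 and SAG101 were met or exceeded by 72.6% and 12.01% of tested probe sets.

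PR1, PR2 and WRKY53 differed less between the arrays of each mutant, and PR5 differed more. For the 5 genes, array 2 minus array 1 lay between -0.47 for SAG101 and 0.35 for PR1 in vip5, and between -0.81 for PR2 and 0.067 for WRKY53 in vip6. Differences as large as that of PR2 in vip6 were found for 4.86% of tested probe sets, and for PR5 in vip6, at -0.75, for 6.13%. PR2 and PR5 were thus both lower on array 2 than on array 1 of vip6, by larger amounts than the other 3 genes. The residual SD over the 3 groups was 0.62 for PR1, 0.58 for WRKY53 and 0.56 for PR2 on the log2 scale, against a median of 0.21 over all tested probe sets. Those of PR5 and SAG101 were 0.33 and 0.30.

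**Figure D3:**
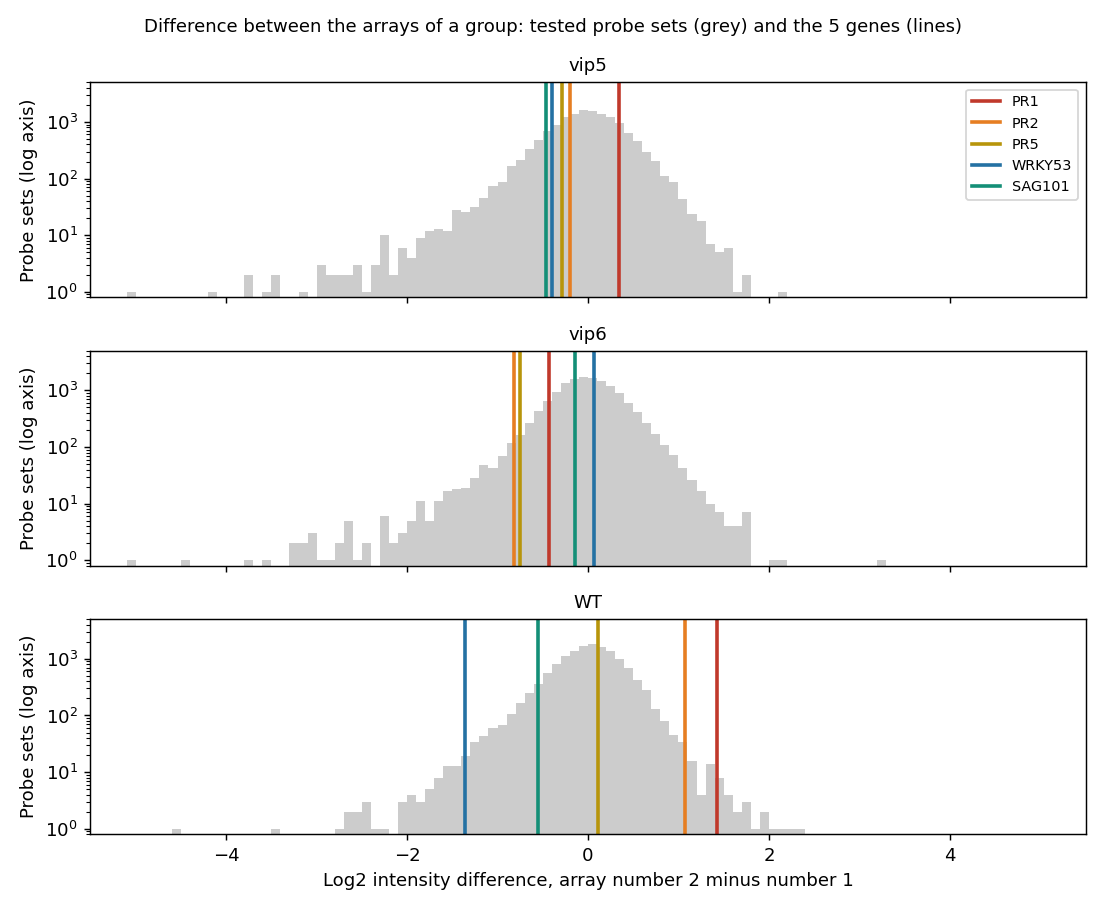
Log2 intensity difference between array 2 and array 1 of vip5, vip6 and WT (x axis) against the number of tested probe sets (grey bars, log axis), with a coloured line for each of the 5 genes. In WT the lines of PR1 at 1.42 and WRKY53 at -1.35 lie far out on opposite sides, whereas in vip5 all 5 lines lie between -0.47 and 0.35.

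Over the 6 arrays, which share 3 groups and 2 array numbers, the Pearson correlation of log2 values was -0.87 between PR1 and SAG101, -0.63 between PR2 and WRKY53 and 0.60 between WRKY53 and SAG101, with Spearman correlations of -0.60, -0.60 and 0.60. Among the PR genes the Pearson correlation was 0.18 for PR1 and PR2, 0.26 for PR1 and PR5 and 0.46 for PR2 and PR5, and the Spearman correlation was 0.43, 0.31 and 0.77 for the same pairs. With 6 arrays these values are descriptions. Among 7702 tested probe sets that name 1 gene, those most like PR1 were AT1G21350, AT4G11120 and AT5G10910, with correlations of 0.991, 0.984 and 0.982. AT4G11120 had 256.6 and 271.8 on the vip5 arrays and 295.7 and 244.4 on the vip6 arrays, against 266.9 and 418.3 on the WT arrays. Like PR1 it was highest on wild type array 2, a likeness that the choice by correlation selects for. The closest, AT1G21350, lay only between 647 and 774.2 on all arrays. Correlations above 0.95 with PR1 were found for 22 of the 7702 probe sets.

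For PR2 the closest were AT5G09290, AT4G35850 and AT1G61640, at 0.986, 0.984 and 0.981. Those of PR5 were AT1G80400, AT1G28260 and AT2G45590, at 0.991, 0.990 and 0.990. For WRKY53 they were petL and psaC, chloroplast-encoded genes of the cytochrome b6f complex and of photosystem I, and AT2G35820, at 0.988, 0.983 and 0.980. The petL probe set had 1596.6 and 1181.9 on the vip5 arrays and 1631.2 and 1732.5 on the vip6 arrays, against 2790.6 and 782.3 on the WT arrays. Its wild type arrays also gave the highest and the lowest values, a likeness that the choice by correlation selects for. SAG101 was closest to AT2G38410, RAP, which acts in chloroplast ribosomal RNA maturation, and AT5G65660, at 0.991, 0.987 and 0.984.

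Other genes of the salicylic acid pathway were sought from fixed lists, of which the annotation names few. Of 14 genes of salicylic acid synthesis and breakdown 2 had a probe set, and 1 was bright enough to be tested. BSMT1, which methylates salicylic acid, had 131.9 and 133.8 on the vip5 arrays and 76.4 and 163.7 on the vip6 arrays, against 60.8 and 80 on the WT arrays, with log2 fold changes of 0.66 and 0.49 (limma adjusted p = 0.446 and 0.618). It entered the test through 3 mutant arrays alone. UGT74F1, a salicylic acid glucosyltransferase, was too dim to be tested, at 5.3 to 14.9 on all arrays. Of 24 immune regulators 2 were tested, SAG101 and SARD4, a reductase of pipecolic acid synthesis. SARD4 had 274.4 and 355.9 on the vip5 arrays and 367.7 and 371.9 on the vip6 arrays, against 412.1 and 405.4 on the WT arrays, with log2 fold changes of -0.35 and -0.13 (limma adjusted p = 0.569 and 0.887).

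Of 14 WRKY factors of defence 3 were tested, and none passed. WRKY6, a senescence and defence factor, had 207.5 and 104.5 on the vip5 arrays and 161.6 and 139.2 on the vip6 arrays, against 151.1 and 52.2 on the WT arrays, with log2 fold changes of 0.51 and 0.52 (limma adjusted p = 0.680 and 0.715). Its wild type arrays differed in the same direction as those of WRKY53, array 1 being the brighter. WRKY22, a factor of immune signalling, had log2 fold changes of -0.16 and -0.17.

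Of 12 genes known to respond to salicylic acid 4 were tested, the 3 PR genes and GRX480, a glutaredoxin induced by the hormone. GRX480 had 137.3 and 102 on the vip5 arrays and 132.2 and 97.9 on the vip6 arrays, against 69.5 and 53.7 on the WT arrays. All 4 mutant arrays exceeded both wild type arrays, and the log2 fold changes were 0.65 and 0.61, with limma adjusted p values of 0.353 and 0.411, or 0.0826 and 0.110 with the array number as a block. GRX480 was bright enough only on array 1 of each mutant, so it could enter the test only through the mutants. Of 10 senescence genes 3 were tested, WRKY53, SAG101 and SAG29, a sugar transporter. SAG29 had 268.3 and 347 on the vip5 arrays and 179.4 and 325.1 on the vip6 arrays, against 158.1 and 171.1 on the WT arrays, with log2 fold changes of 0.76 and 0.47 (limma adjusted p = 0.381 and 0.620). In these lists 0 genes passed in either mutant, where 0.0768% of all tested probe sets passed in vip5 and 0.105% in vip6.

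The protein families of the PR genes gave 1 call. Of 22 CAP family genes related to PR1, 20 had a probe set and 4 were tested, of which 0 rose and 1 fell in each mutant, where 0.0419% of all tested probe sets fell in vip5 and 0.0698% in vip6. That gene was AT2G19970, with 11.5 and 6.3 on the vip5 arrays and 2.7 and 3.2 on the vip6 arrays, against 217.8 and 224.6 on the WT arrays. Its log2 fold changes were -2.43 in vip5 and -2.62 in vip6 (limma adjusted p = 0.00749 and 0.00836), which understate the change because the mutant arrays lie below the pseudocount. AT2G19970 entered the test only through the wild type arrays and was not tested when either of them was left out. With no filter on brightness the limma adjusted p of AT2G19970 was 0.0489 in vip5 and 0.0406 in vip6, just under the threshold. Without vip5 array 1 or 2 its adjusted p in vip5 was 0.0554 or 0.0746, and without vip6 array 1 or 2 that in vip6 was 0.0578 or 0.0836. The pattern of AT2G19970 differs from that of PR1 in that its wild type arrays lay close together. AT5G66590 and AT4G25780, the other tested relatives of PR1, had log2 values of -0.67 and -0.15 in vip5 relative to WT, with -0.42 and -0.41 for vip6, and neither passed. The other 16 CAP genes with a probe set lay between 1.3 and 77.8 on all arrays.

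Of 8 beta-1,3-glucanases 4 had a probe set, and of these PR2 was the 1 gene bright enough to be tested. AT4G16260, another glucanase, had 23.5 and 51 on the vip5 arrays and 52.4 and 22.3 on the vip6 arrays, against 146.9 and 110.4 on the WT arrays. It missed the brightness filter by wild type array 2 and, with no filter, had log2 fold changes of -1.15 in both mutants with limma adjusted p values of 0.343 and 0.376. The other 2 glucanases with a probe set were also too dim.

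Of 20 thaumatin-like genes 18 had a probe set and 13 were tested. In either mutant 0 passed, where 0.0768% of all tested probe sets passed in vip5 and 0.105% in vip6. The median log2 fold change of the 13 genes was 0.062 in vip5 and -0.098 in vip6. AT4G36010 had the highest mean log2 fold change of the 13 over both mutants, with intensities of 762.5 and 592.8 on the vip5 arrays and 637.6 and 539.3 on the vip6 arrays, against 283.6 and 483.6 on the WT arrays. Its log2 fold changes were 0.79 and 0.61 (limma adjusted p = 0.362 and 0.515), and all mutant arrays exceeded both wild type arrays. OSM34, an osmotin-like gene, had log2 fold changes of 0.36 and 0.48, AT5G40020 of 0.28 and 0.32, and AT1G20030 of 0.062 and 0.23. At the low end lay AT2G28790 with -0.25 and -0.62, ATLP-1 with -0.27 and -0.50, AT1G73620 with -0.17 and -0.56, and AT4G38670 with -0.33 and -0.095. Both mutant arrays lay beyond both wild type arrays for 6 of the 13 in each mutant, near the 40.9% and 39.9% of all tested probe sets.

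**Figure D4:**
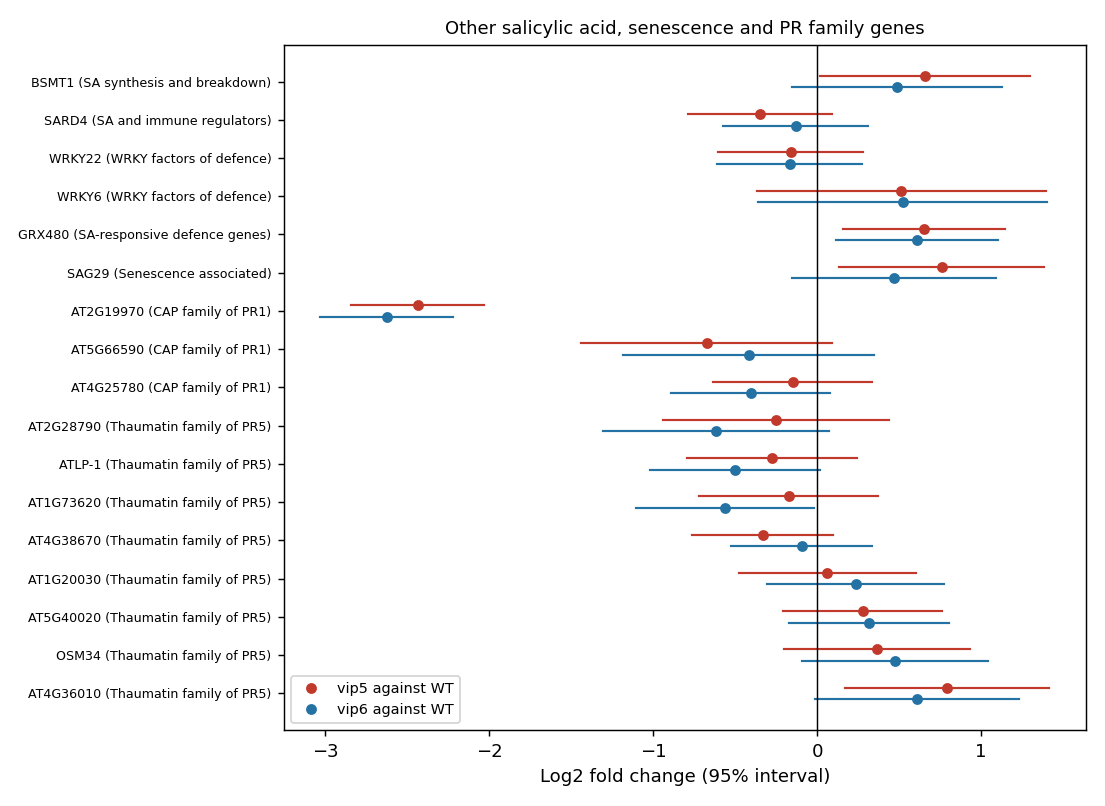
Log2 fold change (x axis) with its 95% interval for the tested relatives and pathway genes named above, in vip5 against WT and vip6 against WT. AT2G19970, at -2.43 and -2.62, is the 1 gene that passed the adjusted test, which it entered only through the wild type arrays. The intervals take no account of multiple testing.

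In the TAIR10.1 gene order, PR1 lies next to its relative PRB1, and PR5 between the thaumatin-like genes TLP-3 and AT1G75050. PRB1 and TLP-3 have no probe set paired with them in the annotation used, and AT1G75050 lay between 6 and 50.3 on all arrays. Whether the PR1, PR2 and PR5 probe sets also detect such relatives was not tested. Next to PR2, AT3G57250 lay between 1.2 and 3.6 on all arrays, and BG1 has no probe set paired with it. Of the neighbours of WRKY53, AT4G23800 had log2 fold changes of 0.22 and 0.086 and AT4G23820 of -0.30 and -0.14. AT5G14940, next to SAG101, had 629.3 and 687.1 on the vip5 arrays and 674 and 630.3 on the vip6 arrays, against 367.1 and 388.7 on the WT arrays. Its log2 fold changes were 0.74 and 0.73 (limma adjusted p = 0.206 and 0.220), with arrays of each group close together. These neighbours were picked by position, and were added after values were seen.

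Leaf genes were bright on all arrays, from 13594 to 46440 for RCA, LHCB4.1 and LHCB4.2. Their log2 fold changes lay between -0.24 and 0.31 in vip5 and between -0.31 and 0.082 in vip6. Each of these leaf genes was brighter on array 2 than on array 1 in every group. RCA had 24526.6 and 46439.9 on the vip5 arrays and 20305.3 and 38063 on the vip6 arrays, against 22676.3 and 32585 on the WT arrays. The root hair gene EXPA7 had 15.2 and 6.9 on the vip5 arrays and 10.7 and 10.3 on the vip6 arrays, against 51.1 and 33 on the WT arrays, too dim to be tested. The anther gene AT5G07230 lay between 143.7 and 199 and had log2 fold changes of 0.15 and 0.048. These are 5 of 15 marker genes, and the others have no probe set paired with them in the annotation used. The part of tissue composition in the values of the 5 defence genes was not tested.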

How the data were processed

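For 6 arrays the authors deposited linear intensity values, 1 per probe set, with software not given in the sources used here. The values show scaling to a common mean, since the means trimmed by 2% at each end agreed within 0.238%, so no further normalization was applied. Detection calls and background values were not used here. Values were tested as log2(intensity + 39.4), the pseudocount being the median of the arrays' 25th percentiles. Leaving aside 64 controls, probe sets above the 40th percentile of their array on at least 2 arrays were kept, 14323 of 22746. A limma model (limma 3.58.1, R 4.3.3) took 1 mean per group over all 6 arrays, leaving 3 residual degrees of freedom. Tests were two-sided, with Benjamini-Hochberg adjustment across all tested probe sets and a threshold of 0.05. The code for the model was tested on simulated data, with noise at the median residual SD of all tested probe sets and no effect of array number. Residual SDs of the 5 genes were larger, so the simulation does not show how often changes in them would be found.

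Groups and array numbers came from the sample titles. Genes were named through the platform annotation, updated by gene identifier to the TAIR10.1 gene table: 13513 probe sets name 1 gene, 503 several and 8794 none, and 13436 of the first matched a locus. The 5 genes and the lists were chosen with earlier results of these data known. Lists are described by counts and medians. Text names the 5 genes, all tested list genes (for lists of more than 8 the 4 highest and 4 lowest by mean of both mutants) and the 3 most correlated probe sets per gene. Neighbours and the dim AT4G16260 were added after values were seen. Alternatives covered normalization, pseudocount, filter, variance model, arrays in the fit, the array number as a block and single arrays left out. The number of arrays limits the precision. Figures were drawn with matplotlib 3.10.9.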

Additional observations from a re-analysis of the deposited data

How the results depend on the processing

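Under the alternatives that left out no single array, none of the 5 genes passed an adjusted p of 0.05 where it was tested. The lowest limma adjusted p among these was 0.202. WRKY53 and SAG101 were not tested with the filter at a higher percentile, so that setting gives no result for them. With single arrays aside, 154 of 159 results on the 5 genes kept their direction. The 5 that reversed were all of WRKY53 in vip6 against WT, at 0.053 with quantile normalization, without and with the replicate block, 0.023 with median scaling, 0.0039 with a pseudocount 2 times smaller and 0.032 with a pseudocount of 1. With 1 array left out, values in vip5 against WT lay between -0.16 and 0.91 for PR2, -0.11 and 0.17 for PR5, and -0.86 and 0.50 for WRKY53. In vip6 against WT they lay between -0.51 and 0.24 for PR5 and -0.69 and 0.66 for WRKY53. For vip6 against vip5 they lay between -0.11 and 0.32 for PR1, -0.15 and 0.67 for PR2, -0.54 and 0.21 for PR5, -0.036 and 0.36 for WRKY53, and -0.17 and 0.29 for SAG101. Where this leaves 1 array in a group, that array is assumed to vary like the others.

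Over all probe sets, the 11 calls in vip5 became 5 with a pseudocount of 1, 2 with no filter, 18 with only the groups compared, 313 with the replicate block, 266 with the block and quantile normalization, and 0 to 18 with 1 array left out. The 15 in vip6 became 1 with no filter, 5 with only the groups compared, 253 with the replicate block, 175 with the block and quantile normalization, and 0 to 5 with 1 array left out. For vip6 against vip5 the block gave 1 call in place of 0. The CAP family count became 0 in both mutants with the filter at the 60th percentile, where AT2G19970 was not tested, and was 0 to 1 with 1 array left out. The causes of the other changes were not tested. Whether equal numbers pair the arrays is not settled by 2 numbers: their differences correlated at 0.306 between vip5 and WT, 0.308 between vip6 and WT and 0.655 between vip6 and vip5 over all tested probe sets. With no background values, no detection limit can be given for dim probe sets.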
